A study of Mus musculus with 120 samples.

Results

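The common gamma chain cytokines and their receptors were described here as a set of 10 genes, chosen by symbol, among 55487 genes listed in both count tables of the series. The set held 4 cytokines (Il2, Il7, Il15 and Il21), 5 receptor chains that each belong to particular cytokines (Il2ra, Il15ra, Il2rb, Il7r and Il21r) and Il2rg, the chain they share. All 10 symbols were found in both tables. RNA was measured in subcutaneous microporous poly(caprolactone) scaffolds, called immunological niches (INs), which host cells infiltrate after implantation and which were biopsied repeatedly from the same female mice.

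NOD/ShiLtJ mice develop autoimmune diabetes spontaneously, and NOR/LtJ mice are a related strain that remains free of it. The series held 23 samples from 5 NOR mice, 39 samples from NOD nonprogressors (NP) and 58 samples from 10 NOD progressors (P). NOR samples and 33 NP samples were taken at 6, 10, 14, 18 or 22 weeks of age, and a further 6 NP samples were labelled only by 31, 38 or 108 days after implantation. P samples were taken at 6 weeks of age, at 7, 5, 3 and 1 weeks before onset and at onset. All mice, controls included, carried implants placed under anaesthesia with an analgesic, and no transgene or test drug was part of the design. A sample was RNA of an explanted IN and so came from a mixture of cells. The first batch held 74 samples, including all NOR samples, and the second held 46. NP mice numbered 4 in batch 1 (5 ages) and 7 in batch 2 (6 and 14 weeks). P mice numbered 5 in each batch, but the 8 samples taken 7 weeks before onset were all sequenced in batch 2. They came from P mice 1 to 4, whose other samples were in batch 1, and from P mice 6, 7, 9 and 10.

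Totals ran from 4722396 to 56185434 counts per library. Levels are CPM (counts scaled to library size) after TMM scaling within each batch. The 18-week library of NOR mouse 5 stood apart: 1 ribosomal RNA gene took 85.7% of its counts and its TMM factor was 0.12. In it 3 counts equalled 2.91 CPM, against at most 0.555 CPM in any other library. Elsewhere the TMM factor was 0.538 or above, lowest in the 22-week library of NP mouse 4. Genes of 7SL RNA took 0.202% to 38.3% of the counts of a library. Every pair of libraries of a group differed by more than sampling noise (lowest chi-square 12 per gene over 239 pairs). Macrophage markers (7 genes, summed) ran from 1590 to 4280 CPM and fibroblast markers (5 genes) from 5090 to 52400 CPM. T cell markers (12 genes) summed to 5.96 to 98.8 CPM and NK cell markers (7 genes) to 1.13 to 32.5 CPM.

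Cytokines of this family signal through receptors that contain the common gamma chain, which couples to JAK3, while the partner chain couples to JAK1, and STAT5 is the main transcription factor activated by IL-2, IL-7 and IL-15 (IL-21 acts mainly through STAT3). IL-2 comes mostly from activated T cells and sustains regulatory T cells, IL-7 comes largely from stromal cells and maintains naive and memory T cells, IL-15 is presented on IL-15Rα by myeloid and stromal cells to NK and memory T cells, and IL-21 comes from helper T cells. In NOD mice the Il2 and Il21 region lies within a well-known diabetes susceptibility interval.

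In GRCm38 coordinates, Il2 (chr3:37120523-37125959, minus strand) and Il21 (chr3:37222759-37232636, minus strand) were neighbours 96.8 kb apart. Il2ra (chr2:11642807-11693193) and Il15ra (chr2:11705290-11734317) lay 12.1 kb apart on the plus strand. Il7 (chr3:7569994-7613760) and Il15 (chr8:82331632-82403222) were on the minus strand, as were Il2rb (chr15:78479256-78495271), Il7r (chr15:9505788-9530176) and Il2rg (chrX:101264378-101268255), and Il21r was on the plus strand (chr7:125603429-125633570), 24.0 kb from Il4ra. RefSeq promoter windows (GRCm38.p6, 250 bases before to 50 after the start, read on the gene's strand) were held for 7 members in 8 windows. The windows of the 2 receptors with the highest levels are shown with that of Il2, the cytokine with the fewest counts in all. Capitals mark TTCNNNGAA (the pattern of STAT sites) in Il7r, CCGGAAG (an ETS-type core) in Il2rg and GGAAAA (an NFAT-type core) or its reverse complement in Il2.
Il7r (chr15:9529827-9530126, minus strand): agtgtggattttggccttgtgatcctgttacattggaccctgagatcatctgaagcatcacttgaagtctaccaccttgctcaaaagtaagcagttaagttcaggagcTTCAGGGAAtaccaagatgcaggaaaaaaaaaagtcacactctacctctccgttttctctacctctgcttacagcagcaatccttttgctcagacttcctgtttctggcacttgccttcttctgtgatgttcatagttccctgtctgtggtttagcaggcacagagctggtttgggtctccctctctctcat
Il2rg (chrX:101268206-101268505, minus strand): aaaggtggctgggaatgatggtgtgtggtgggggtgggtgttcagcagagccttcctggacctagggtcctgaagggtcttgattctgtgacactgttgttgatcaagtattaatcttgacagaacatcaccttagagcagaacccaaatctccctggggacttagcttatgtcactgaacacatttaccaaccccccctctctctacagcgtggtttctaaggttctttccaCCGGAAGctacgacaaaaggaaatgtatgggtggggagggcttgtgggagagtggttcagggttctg
Il2 (chr3:37125905-37126204, minus strand): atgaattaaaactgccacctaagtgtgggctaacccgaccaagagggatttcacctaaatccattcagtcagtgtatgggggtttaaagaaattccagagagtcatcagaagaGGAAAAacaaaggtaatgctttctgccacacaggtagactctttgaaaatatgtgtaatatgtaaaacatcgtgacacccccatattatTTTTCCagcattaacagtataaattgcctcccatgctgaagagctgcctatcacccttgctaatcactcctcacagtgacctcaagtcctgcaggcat
Both strands of 32851 windows were searched. TTCNNNGAA was in 8.3% of all windows and in 1 of the 8 member windows (Il7r). CCGGAAG was in 8.86% of all windows and in 2 member windows (Il15ra and Il2rg), and GGAAAA in 23.4% and in 4 (Il15ra, Il2, Il21 and Il7r).

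By median, the receptor chains Il7r, Il2rg and Il15ra were highest and the cytokines Il7, Il21 and Il2 lowest. The cytokine Il15 lay near the receptor chains Il21r and Il2rb. Per kilobase of exon, Il7r was the most abundant member (median 48.8 CPM per kb over 120 samples, range 19 to 104), followed by Il2rg (14.1, range 7.64 to 30.4) and Il15ra (3.45, range 1.2 to 7.13). Il15 (2.09, range 0.989 to 4.48), Il21r (2.08, range 0.767 to 5.89) and Il2rb (1.81, range 0.274 to 9.24) overlapped almost wholly and cannot be ordered. Il2ra (0.431, range 0.111 to 2.85) and Il7 (0.128, range 0.0208 to 0.856) were lower, and Il2 and Il21 had medians of 0. The range of Il7r overlapped with that of Il2rg and lay above the ranges of the other 8 members.

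**Figure D1:**
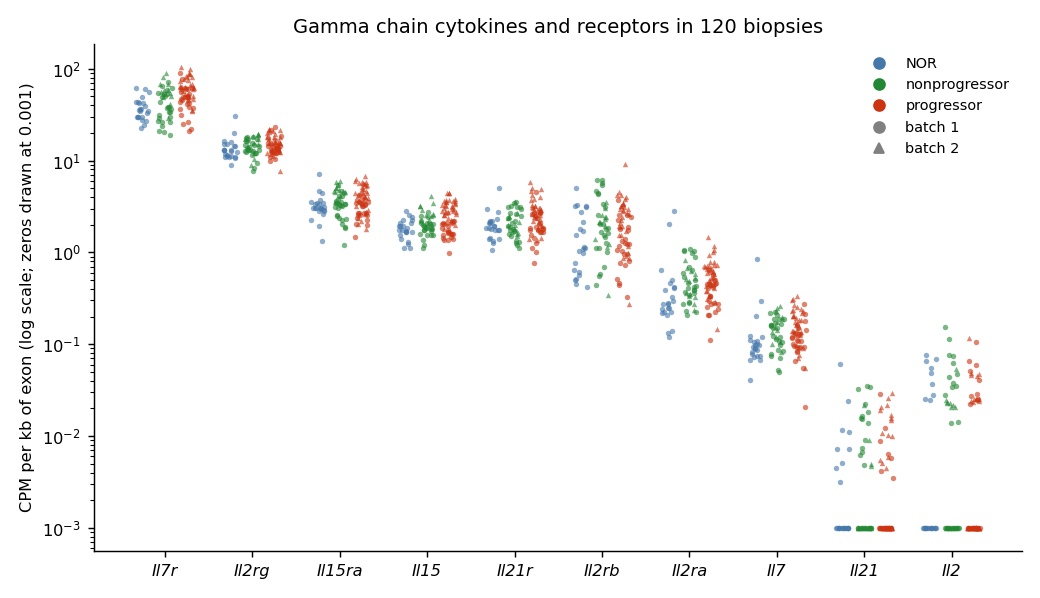
CPM per kb of exon (log axis) of the 10 members in each of 120 samples, coloured by NOR, NP and P, with circles for batch 1, triangles for batch 2 and zeros drawn at 0.001. Il7r has a median of 48.8 and Il7 of 0.128, and Il2 and Il21 are at 0 in 69 and 71 samples.

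Il2, the T cell growth factor, had 86 counts in all 120 libraries together, no library held more than 5 and 69 held none. Its 4 libraries with 4 or 5 counts were P mouse 2 at onset, NP mouse 4 at 10 weeks, NP mouse 2 at 18 weeks and P mouse 8 at −5 weeks, so they belonged to no single group. Il21 had 115 counts, at most 10 in a library (the 18-week library of NOR mouse 4) and none in 71. None of the 10 P samples at 6 weeks had an Il21 count, and the highest later P libraries held 5. At 6 weeks, 3 of 4 NOR libraries, 3 of 4 NP libraries of batch 1 and 6 of 7 of batch 2 also had none. With libraries of a mouse summed in batch 1, Il2 averaged 0.0267 CPM in 9 NOD mice and 0.025 CPM in 5 NOR mice (exact permutation test, two-sided, p = 0.886, adjusted over 2 tests 0.886). Il21 averaged 0.0225 and 0.0305 CPM (exact permutation p = 0.539, adjusted 0.886). Neither gene passed the filter on low counts in any comparison below, so 8 of the 10 members were tested in each. At these counts a difference would not have been detectable unless it was large.

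Il7r, the private chain of the IL-7 receptor and also part of the receptor for TSLP, ran from 88.6 to 486 CPM (median 228). Markers of T cells, the best-known carriers of this receptor, were far below it: per kb, Cd3e had a median of 0.381 CPM and Trac of 0.638, against 48.8 for Il7r. Across the 74 samples of batch 1, the 3 genes with the most similar profile were Met (Spearman 0.899), Tes (0.89) and Dgkh (0.887), and in the 46 samples of batch 2 the values were 0.744, 0.869 and 0.724. These correlations share libraries and are descriptive. With the summed T cell markers, Il7r correlated at −0.57 in batch 1 and −0.27 in batch 2. For the other marker lists the values were 0.41 and 0.52 (dendritic cell), −0.07 and 0.52 (macrophage) and −0.18 and −0.23 (fibroblast). They were −0.43 and −0.13 for NK cell and −0.3 and −0.08 for regulatory T cell markers. The cell source of Il7r was not tested. Crlf2, which pairs with Il7r in the TSLP receptor, had a median of 32.1 CPM per kb, while the cytokine Tslp had a median of 0.326 CPM in batch 1 and 0.946 CPM in batch 2.

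Il2rb, the chain shared by the IL-2 and IL-15 receptors and carried by NK cells and memory T cells, followed cytotoxic lymphocyte genes. The most similar genes were Eomes, a transcription factor of NK and memory T cells (0.925 in batch 1, 0.933 in batch 2), Sh2d2a, an adaptor in T cells (0.911 and 0.904), and Ctsw, a cathepsin of cytotoxic cells (0.882 and 0.895). With the summed NK markers, Eomes among them, Il2rb correlated at 0.9 and 0.89. With the summed T cell markers Il2rb correlated at 0.86 and 0.86. Il2ra, the high-affinity IL-2 receptor chain (CD25), resembled Zfp831 (0.755 and 0.77), Ccr7 (0.708 and 0.476) and Icos, a T cell costimulator (0.692 and 0.845). Il15ra, which presents IL-15, resembled C2, a complement gene (0.779 and 0.835), Cyb561 (0.779 and 0.736) and Fbln1, a matrix gene (0.77 and 0.75). Il15 resembled Fam124a (0.742 and 0.357), Il10rb (0.734 and 0.494) and Tmem106a (0.72 and 0.712). Il21r resembled P2ry6 (0.713 and 0.619), Itga9 (0.69 and 0.769) and Ccl12 (0.631 and 0.536), and Il2rg resembled Tgfbi (0.63 and 0.689), Sec61a1 (0.63 and 0.58) and Elk3 (0.617 and 0.647). Among the 8 members themselves, the strongest relation in batch 1 was inverse, between Il15ra and Il7r (−0.72, and −0.59 in batch 2). In batch 2 it was between Il2ra and Il2rb (0.7, and 0.3 in batch 1), followed by Il15 with Il21r (0.67 and 0.14) and Il15 with Il7r (0.63 and 0.41). Fewer cells of a type and less RNA per cell cannot be told apart in these bulk samples.

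The first comparison asked whether the autoimmune-prone strain differed from the related control. The batch 1 libraries of each mouse were summed, giving 9 NOD mice (4 NP, 5 P) and 5 NOR mice. None of the 8 members tested was called at an adjusted p under 0.05 (edgeR quasi-likelihood test, Benjamini-Hochberg over 23387 genes), where 8.98% of all genes were. At an unadjusted p under 0.05 the count was also 0, where 5466 of the 23387 genes passed. DESeq2 called 0 of the members. Il7r had the smallest p. Its levels in the 5 NOR mice ran from 151 to 210 CPM (median 178) and in the 9 NOD mice from 165 to 268 CPM (median 212), so the groups overlapped, and the log2 difference (NOD minus NOR) was 0.24 (SE 0.12, adjusted p = 0.247). Il2rg was close in the groups, 31.1 to 36.5 CPM in NOR and 30.3 to 37.4 CPM in NOD, with a log2 difference of 0.00 (SE 0.06). The remaining log2 differences lay between −0.22 (Il2rb, SE 0.23) and 0.15 (Il7, SE 0.17).

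In NOR mice the question was whether levels changed with age. None of the 8 members was called for the mean of the later ages against 6 weeks (0.0357% of 19628 genes were called). At an unadjusted p under 0.05 there was 1, Il2ra (log2 1.08, SE 0.49, adjusted p = 0.715), where 1341 of the 19628 genes passed. DESeq2 called 0 of the members. Il7 was 0.75 higher later on the log2 scale (SE 0.37, adjusted p = 0.742) and was not called. Its log2 change ran from 0.651 to 0.935 when mice were left out. An F test over the 5 ages called 2 members, Il2ra (adjusted p = 0.0125) and Il2rb (adjusted p = 0.0155), where 8.24% of genes were called. Il2rb was 7.34, 4.88, 2.73 and 6.59 CPM at 6 weeks, 21.3, 13.8, 9.11, 11.7 and 13.9 CPM at 10 weeks and 2.65, 2.45, 2.13, 4.2 and 2.2 CPM at 22 weeks. The 10-week values lay above all 6-week and 22-week values. The summed NK markers moved with it, with a median of 14.3 CPM at 10 weeks against 5.44 at 6 weeks and 2.58 at 22 weeks, and 6 of 7 NK genes passed the same F test. Their part in the result was not tested. Il2ra at 18 weeks was 2.68 CPM in mouse 1, 0.756 in mouse 3, 16.3 in mouse 4 and 11.6 in mouse 5, and no NOR value at another age exceeded 3.71 CPM. The value of mouse 5 rests on the library in which ribosomal RNA dominated. With the mouse as block, the F test kept Il2rb and not Il2ra (adjusted p = 0.074). Leaving out mouse 4 gave Il2ra an adjusted p of 0.423, and leaving out mice 2 or 5 left neither gene called. Over all genes, the F test called 604 of 19473 without mouse 2 and 802 of 19774 without mouse 5, against 1617 of 19628 with all mice.

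The 18-week library of NOR mouse 4 was ordinary in depth (29180523 counts, TMM factor 1.06). It held the highest value among all 120 samples for 3 members, Il2ra (16.3 CPM), Il15ra (31.7 CPM) and Il2rg (72.5 CPM), with Il21r at 16.8 CPM, Il2rb at 13.6 CPM and Il7 at 1.68 CPM. Its T cell markers summed to 52.6 CPM, against 6.26 to 15.5 CPM in the other 18-week NOR libraries, although NOR libraries at 10 weeks reached 56.4 CPM. Its neutrophil markers summed to 313 CPM against 8.73 to 30.8 CPM, and its regulatory T cell markers to 18.7 CPM against 5.82 to 11.1 CPM. The part of these cells in the member values was not tested. Il7r in it was 138 CPM, the second lowest of the 18-week NOR libraries.

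In NP the same question gave 3 called members, while 24.1% of 21138 genes were called, so 3 of 8 is read against that share. Il7, the lymphocyte survival cytokine, rose, and Il15ra and Il2rg fell. Il7 at 6 weeks was 0.299, 0.595, 0.399 and 0.494 CPM in the 4 batch 1 mice and had a median of 0.678 CPM in batch 2 (highest 1.06). Later it had a median of 0.69 CPM in batch 1 (0.285 to 1.25, 16 samples) and 1.2 CPM in batch 2 (0.778 to 1.47, 6 samples). Later values were mostly higher with overlap, the later mean exceeding the 6-week sample of the same mouse in 4 of 4 mice and 5 of 6 mice. The log2 change was 0.68 (SE 0.23, adjusted p = 0.0308). Within batch it was 0.71 (adjusted p = 0.173) in batch 1 and 0.65 (adjusted p = 0.0366) in batch 2, and on plain library sizes it was 0.53 (adjusted p = 0.0821). It was also not called without mouse 2, 3, 7 or 8 (adjusted p = 0.0526 to 0.115), nor without a batch term (adjusted p = 0.069) or without the filter on low counts (adjusted p = 0.0503).

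Il15ra in NP was 14.3, 14.9, 15.4 and 18.4 CPM at 6 weeks and 5.35, 8.35, 8.17 and 9 CPM at 22 weeks in batch 1. The 22-week values all lay below the 6-week values. In batch 2 it was 20.1 to 26.4 CPM at 6 weeks (median 22.6) and 14.6 to 22.3 CPM at 14 weeks (median 19.3). All 10 mice with a later sample had a later mean below their own 6-week value. The log2 change over the later ages was −0.37 (SE 0.11, adjusted p = 0.0131), and it was −1.02 at 22 weeks alone, which was sampled in batch 1 only (SE 0.17, adjusted p = 0.000107, 24.9% of genes called). At 10 weeks the batch 1 values were 18.1, 13.4, 17 and 24.4 CPM, so the lower levels appeared from 14 weeks (log2 −0.35, SE 0.11, adjusted p = 0.0166, 29.8% of genes called). Neither batch alone called the change over the later ages (log2 −0.39, adjusted p = 0.0943, and −0.29, adjusted p = 0.0633). The fibroblast markers were lower later in the same comparison, 5 of 5 called, and Il15ra correlated with their sum at 0.18 in batch 1 and 0.55 in batch 2. It correlated with the summed dendritic cell markers at −0.38 and −0.71 and with the T cell markers at 0.62 and 0.2. In the pooled fit 4 of 5 skin epithelium markers were also lower later. Their sum in batch 1 at 6 weeks was 532 CPM in mouse 4 and 0.762 to 4.59 CPM in the other mice. In batch 2 the median sum was 1.15 CPM at 6 weeks and 12.4 CPM at 14 weeks, so it was not lower later. The part of these markers in the change was not tested.

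Il2rg in NP was 32.8, 41.7, 39.2 and 31.9 CPM at 6 weeks and 22.6, 31.2, 27.4 and 19.7 CPM at 22 weeks in batch 1. The lowest 6-week value lay just above the highest 22-week value. The log2 change over the later ages was −0.40 (SE 0.12, adjusted p = 0.016), and neither batch alone called it (−0.29, adjusted p = 0.164, and −0.32, adjusted p = 0.13). An F test over the ages called 4 members (34.7% of genes called): Il15ra (adjusted p = 4.76e-05), Il2ra (0.00815), Il2rg (0.0405) and Il21r (0.0488). Il2ra was highest at 14 weeks, 3.1, 2.88, 5.14 and 3.91 CPM in batch 1 against 1.28, 1.56, 2.37 and 2.22 CPM at 6 weeks, a log2 difference over both batches of 0.71 (SE 0.20, adjusted p = 0.00748). Il21r, the receptor chain for IL-21, was 0.45 higher at 14 weeks on the log2 scale (SE 0.16, adjusted p = 0.0345). Without mouse 1 the comparison of later ages called 1 member, Il7, since Il15ra (adjusted p = 0.0687) and Il2rg (0.0635) were no longer called. That fit called 2786 of 21532 genes, against 5094 of 21138 with all mice.

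**Figure D2:**
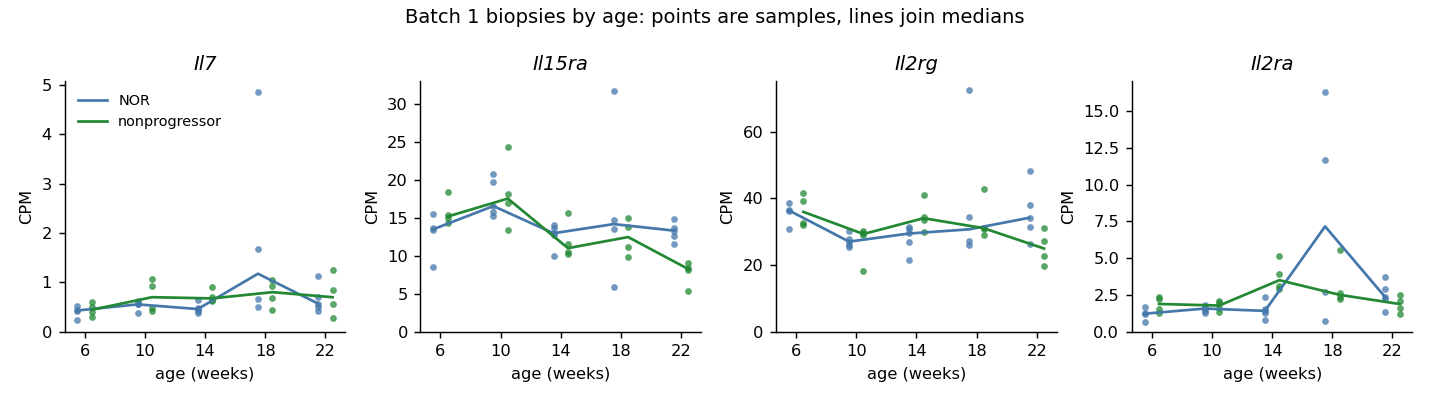
CPM of Il7, Il15ra, Il2rg and Il2ra in batch 1 by age in weeks, for NOR (blue) and NP (green), with a point for each sample and lines through the medians. Il15ra in NP falls to 5.35 to 9 CPM at 22 weeks, and the NOR points at 4.85 CPM (Il7) and 11.6 CPM (Il2ra) at 18 weeks are the library dominated by ribosomal RNA.

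The difference between the NP and NOR changes was tested directly in batch 1. edgeR called 0 members and 0% of 20647 genes (1250 genes at an unadjusted p under 0.05), and DESeq2 called 0 members and 2 genes. At an unadjusted p under 0.05, 2 members were found, Il15ra (log2 −0.61, SE 0.29, adjusted p = 0.816) and Il7r (0.61, SE 0.29, adjusted p = 0.816). For Il7 the log2 difference was −0.03 (SE 0.50). Changes called in NP and not in NOR were therefore not shown to differ between them.

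In P, the comparison of all later times with 6 weeks called 3 members, Il7 and Il2ra higher and Il2rg lower, where 36.5% of 21279 genes were called. The share, 3 of 8, is near that background. Il7 at 6 weeks was 0.531, 0.371, 0.848, 0.481 and 0.118 CPM in batch 1 and 0.404, 0.784, 0.55, 1.03 and 0.311 CPM in batch 2. Later medians were 0.648 CPM in batch 1 (0.316 to 1.55, 20 samples) and 1.06 CPM in batch 2 (0.43 to 1.88, 28 samples), so ranges overlapped while 8 of 10 mice had a later mean above their own 6-week value. The log2 change was 0.67 (SE 0.20, adjusted p = 0.00742), with 0.56 (adjusted p = 0.169) within batch 1 and 0.82 (adjusted p = 0.0278) within batch 2. Il2rg at 6 weeks was 40.2, 32.1, 43.7, 55.5 and 32.6 CPM in batch 1 and 43.1, 49.2, 41.4, 53.2 and 43.1 CPM in batch 2. Its later medians were 31.8 and 36.1 CPM, 8 of 10 mice had a later mean below their own 6-week value, and the log2 change was −0.36 (SE 0.10, adjusted p = 0.00393). Without the samples of 7 weeks before onset, 7 members were called, all but Il2rb, in a fit that called 8194 of 20595 genes. Neither batch alone called Il2rg (log2 −0.32, adjusted p = 0.0823, and −0.35, adjusted p = 0.0631).

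The Il2ra change was called in batch 2 of P and not in batch 1. In batch 2 it was 1.91, 0.84, 1.93, 1.65 and 1.78 CPM at 6 weeks, 4.2, 8.45, 6.01, 3.4 and 4.5 CPM at −5 weeks and 4.13, 2.16, 3.02, 2.82 and 2.5 CPM at onset. Every later batch 2 value (2.14 CPM or above) was higher than every 6-week value. In batch 1 it was 1.57, 1.27, 1.6, 2.6 and 2.82 CPM at 6 weeks and 1.89, 2.4, 1.45, 1.68 and 2.56 CPM at −5 weeks, and these overlapped. The pooled log2 change was 0.66 (SE 0.21, adjusted p = 0.00968), with 0.16 (adjusted p = 0.713) within batch 1 and 1.26 (adjusted p = 0.000149) within batch 2. Batch 2 at 7 weeks before onset included mice 1 to 4, whose 6-week samples were in batch 1. Without any samples of 7 weeks before onset, the batch 2 change was 1.28 (adjusted p = 0.000605) in an edgeR fit of both batches. Il2rb in batch 2 had a median of 6.62 CPM at 6 weeks, followed by 13.5, 13.9, 14.4 and 11.3 CPM at 7, 5, 3 and 1 weeks before onset and 7.28 CPM at onset. Its mean at −5 weeks (18.4 CPM, SD 12.7, n = 5) included 39.6 CPM in mouse 8, whose T cell markers summed to 98.8 CPM. In batch 1 its mean was 8.09 CPM at 6 weeks, 7.79 at −5 weeks and 4.42 at onset (SD 2.45, 5.58 and 1.54, n = 5 each). The difference between batches in the change after 6 weeks, without the samples of 7 weeks before onset, was 1.10 for Il2ra (log2, SE 0.38, adjusted p = 0.0688) and 1.58 for Il2rb (SE 0.55, adjusted p = 0.0713). edgeR thus called 0 members where 5.16% of 20595 genes were called. These 2 members were at an unadjusted p under 0.05, as were 4861 of the 20595 genes. DESeq2 called both (adjusted p = 0.0333 and 0.0328). Batch here stands for sequencing on another instrument and for other mice, which cannot be told apart. T and NK markers moved with these values in batch 2: NK markers had medians of 5.4 CPM at 6 weeks, 20.4 at −5 weeks and 5.48 at onset, against 5.55, 7.02 and 4.29 CPM in batch 1.

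**Figure D3:**
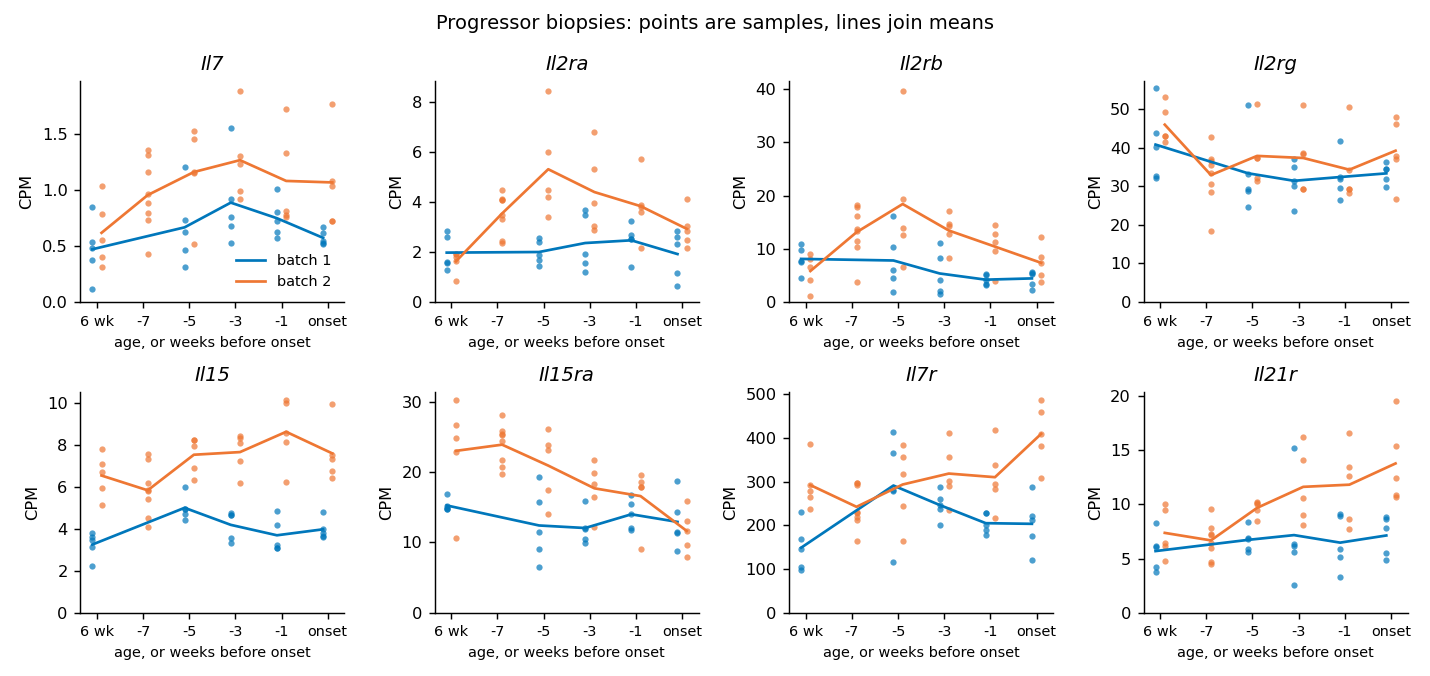
CPM of the 8 tested members in P by time (6 weeks of age, then weeks before onset), with batch 1 in blue, batch 2 in orange, a point for each sample and lines through the means. The mean of Il2ra at −5 weeks is 5.31 CPM in batch 2 and 2 CPM in batch 1, and the high Il2rb mean at −5 weeks in batch 2 (18.4 CPM, median 13.9) includes 1 library at 39.6 CPM.

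An F test over the 6 times called 7 of the 8 members in P, all but Il2rb, where 35.6% of genes were called. It was not stable: with the mouse as block Il7 (adjusted p = 0.0832) and Il2ra (0.0622) were not called (6678 of 21279 genes called). Without the samples of 7 weeks before onset 3 members were called (7134 of 20595 genes), and batch 1 alone called 1 (3675 of 19596 genes). Against 6 weeks, 4 members were called at −5 weeks (25% of genes called): Il15 (log2 0.42, SE 0.12, adjusted p = 0.0065), Il2ra (0.86, SE 0.25), Il7 (0.69, SE 0.25) and Il7r (0.51, SE 0.18). Il15 at −5 weeks in batch 1 was 4.68, 4.93, 6, 4.94 and 4.41 CPM, all above its 6-week values of 3.79, 3.46, 3.59, 3.12 and 2.24 CPM, while in batch 2 it was 8.24, 8.25, 6.87, 7.93 and 6.32 CPM against 5.12, 7.78, 5.95, 6.72 and 7.08 CPM with overlap. At onset, 3 members were called (39.6% of genes called). Il15ra was lower (log2 −0.60, SE 0.17, adjusted p = 0.00427), and Il7r (0.46, SE 0.18, adjusted p = 0.0392) and Il21r (0.60, SE 0.20, adjusted p = 0.0152) were higher. The other steps, 7, 3 and 1 weeks before onset, called 2670, 5265 and 5605 of 21279 genes. Il15 was called at none of them (adjusted p = 0.559, 0.0626 and 0.063) and not at onset (0.101). Il7r was also called at none of them (0.803, 0.087 and 0.326). Il2rg was called 7 and 1 weeks before onset only (0.0176 and 0.0232). Il7 and Il2ra were called 3 and 1 weeks before onset, and not 7 weeks before or at onset. Il7r at 6 weeks was 145, 168, 97.1, 230 and 103 CPM in batch 1, where later samples had a median of 228 CPM, and 278, 387, 238, 291 and 266 CPM in batch 2, where the later median was 297 CPM. Over all later times it was higher in batch 1 alone (log2 0.66, SE 0.22, adjusted p = 0.0281) and 0.08 (SE 0.16, adjusted p = 0.741) in batch 2. The difference between batches, without the samples of 7 weeks before onset, was −0.53 (SE 0.28, adjusted p = 0.232). Il15ra at onset in batch 2 was 16, 7.95, 9.66, 11.6 and 13 CPM against 24.8, 10.6, 22.9, 30.3 and 26.8 CPM at 6 weeks, and each mouse was below its own 6-week value. In batch 1 it was 14.4, 18.7, 8.78, 11.4 and 11.3 CPM against 14.7, 16.9, 14.8, 14.9 and 15.2 CPM, and mouse 2 was higher. Il21r at onset in batch 2 was 10.9, 12.4, 10.7, 19.6 and 15.4 CPM, all above its 6-week values (4.77 to 10 CPM). In batch 1 its onset values (4.82 to 8.84 CPM) overlapped with those at 6 weeks (3.72 to 8.25 CPM).

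From −5 weeks to onset no member was called, where 1.77% of 21279 genes were. Il2rb came closest: the mean was 13 CPM at −5 weeks and 5.85 CPM at onset, a log2 change of −1.10 (SE 0.36, adjusted p = 0.0874), and DESeq2 called it (adjusted p = 0.046). Its onset value was below its own −5-week value in 3 of 5 mice of batch 1 and 5 of 5 of batch 2. At an unadjusted p under 0.05 there were also Il15ra (−0.39, SE 0.17) and Il2ra (−0.51, SE 0.25), where 3896 of the 21279 genes passed. Within batch 2, Il15ra fell by 0.83 on the log2 scale (adjusted p = 0.0192), in a fit that called 1973 of 21377 genes. Within batch 1 its mean was 12.4 CPM at −5 weeks and 12.9 CPM at onset (log2 0.05, adjusted p = 0.929), and 2 of 5 mice were below their own −5-week value. Of the 7 NK markers, 3 fell in the pooled comparison: Ncr1 (log2 −2.0, adjusted p = 0.0231), Eomes (−1.84, adjusted p = 0.0296) and Klrd1 (−1.72, adjusted p = 0.0417). Their part in the Il2rb values was not tested.

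Progressors were set against nonprogressors at 6 weeks (10 and 11 mice, batch as a term) and after 6 weeks (10 and 10 mice, summed libraries). At 6 weeks edgeR called 0 members and 0% of 19082 genes (985 at an unadjusted p under 0.05), and DESeq2 called 0 of both. No member had an unadjusted p under 0.05. Il2rg had the smallest p, with a log2 difference of 0.18 (SE 0.09, adjusted p = 0.891). After 6 weeks edgeR called 0 members and 0.0132% of 22696 genes, and DESeq2 called 0 members and 233 genes. Il21r was the only member with an unadjusted p under 0.05, where 2158 of the 22696 genes passed. Its levels were 6.31 to 11.5 CPM in P and 5.94 to 8.61 CPM in NP of batch 1, and 8.36 to 12 CPM in P and 4.61 to 10.9 CPM in NP of batch 2, which overlapped. The log2 difference was 0.34 (SE 0.15, adjusted p = 0.514). Il7r was 0.26 higher in P (SE 0.15, adjusted p = 0.565). Ages were not matched in this comparison.

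**Figure D4:**
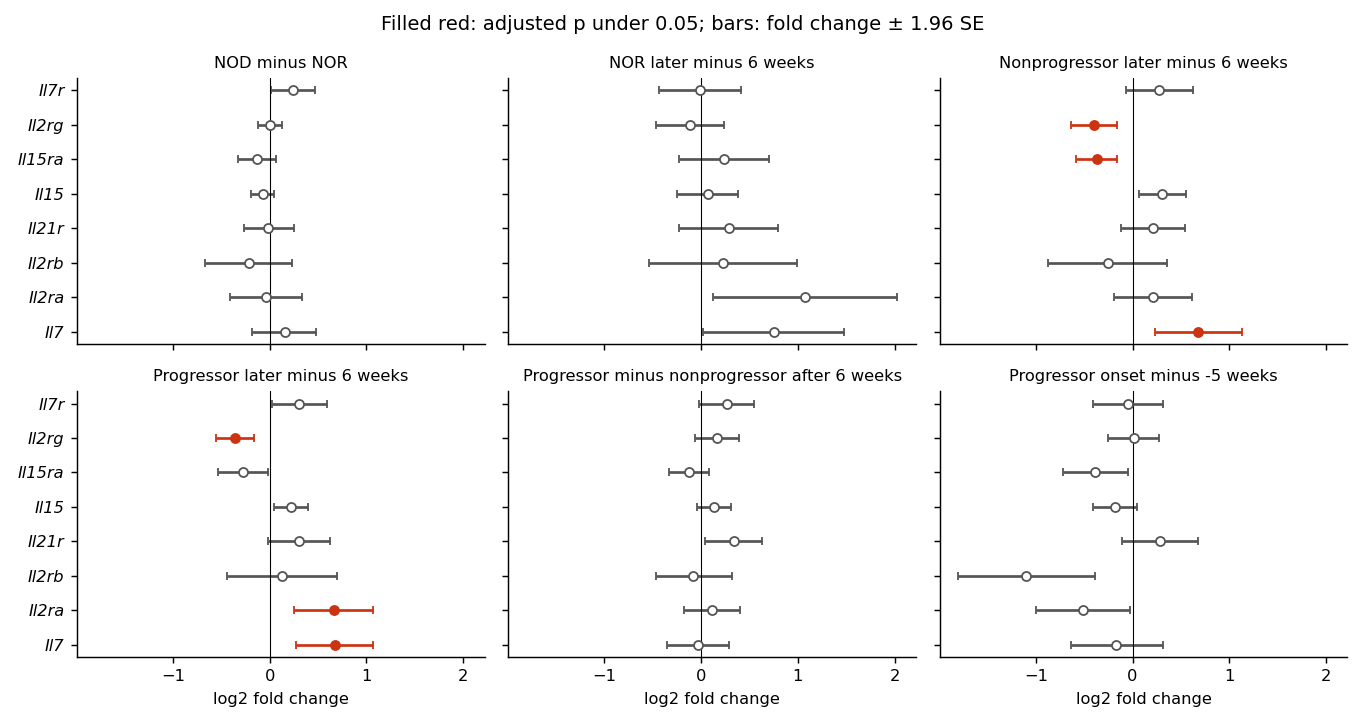
Log2 fold changes of the 8 tested members in 6 comparisons, with bars of the confidence interval from the SE, filled red where the adjusted p is under 0.05. Il7 is higher later in NP (0.68) and P (0.67), Il2rg is lower (−0.40 and −0.36), and no member is called between strains or between P and NP. The Il7 change in NOR is 0.75 (SE 0.37) and is not called.

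Other genes of the pathway were counted in the same fits, where 24.1% of all genes were called over later NP ages and 36.5% over later P times. Of the other family members (Il4, Il4ra, Il9, Il9r, Il13ra1, Tslp and Crlf2), 5 of 7 were tested in every comparison. In NP, 2 rose later, Crlf2 (log2 0.54, adjusted p = 0.000361) and Il9r, the IL-9 receptor chain (0.80, adjusted p = 0.0122). In P, Il9r (0.93, adjusted p = 0.000806) and Crlf2 (0.33, adjusted p = 0.00135) rose, and Il13ra1, which pairs with Il4ra, fell (−0.31, adjusted p = 0.00856). Of 12 signalling genes, 3 rose and 1 fell in P: Syk (0.30, adjusted p = 0.000177), Lck, the T cell kinase (0.80, adjusted p = 0.00147), and Stat5a (0.21, adjusted p = 0.0111) rose, and Jak1 (−0.18, adjusted p = 0.0155) fell. Of 14 feedback and target genes, 5 rose in NP, with Pim1 (0.46, adjusted p = 0.00868) and Foxp3, the regulatory T cell factor (0.73, adjusted p = 0.0236), among them. In P, 4 rose and 2 fell, with Foxp3 (0.97, adjusted p = 1.45e-06) and Bcl2, a survival gene (0.42, adjusted p = 8.54e-05), among those that rose. No gene of these 3 lists was called for the later ages of NOR against 6 weeks, in the difference of age changes, between P and NP, or from −5 weeks to onset. The F test over NOR ages called 1 of 5 family genes, 1 of 12 signalling genes and 5 of 14 feedback and target genes (8.24% of all genes). Between strains, where 8.98% of all genes were called, 2 of 14 feedback and target genes were called and none of the other lists. They were Myc (0.26, adjusted p = 0.0115) and Bcl2l1 (−0.20, adjusted p = 0.0273). Markers of cell types moved in the same comparisons. In P, 7 of 11 T cell and 4 of 5 B cell genes rose and 5 of 5 fibroblast genes fell. In NP, 5 of 5 fibroblast and 4 of 5 skin epithelium genes fell, and 2 of 5 B cell and 1 of 11 T cell genes rose. The skin epithelium sum in batch 1 at 6 weeks was 532 CPM in NP mouse 4 and 0.762 to 4.59 CPM in the other NP mice. In batch 2 its median was higher later. The part of these cell types in the member changes was not tested.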

How the data were processed

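RNA was measured in 120 explanted INs by total RNA sequencing after ribosomal depletion, on different NovaSeq instruments for batch 1 and batch 2. The authors deposited expected counts per gene, all whole numbers in the files. The submitters' processing notes name cutadapt, FastQC, STAR, RSEM, MultiQC and GRCm38, and their versions are not given in the sources used here. All samples had a group from the labels. Counts were tested with edgeR 4.0.16 in R 4.3.3 (filterByExpr with a minimum count of 10, TMM scaling, quasi-likelihood F test, Benjamini-Hochberg adjustment over all genes tested, threshold 0.05), with batch as a term where both batches entered. DESeq2 1.42.0, plain library sizes, no filter, the mouse as a block, single batches and leaving out mice were the alternatives. The interaction of batch and time and the single time steps were added after seeing the data. CPM per kb used exon lengths of GENCODE for GRCm38. On simulated counts, 80.2% of genes changed by 1 on the log2 scale were recovered for NOD against NOR (23387 genes) and 75.3% for P over time (21279 genes). False calls numbered 6 and 4. The simulated counts had no batch or mouse effect and took their spread from a trend over all genes. Recovery of changes smaller than 1 was not measured.

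All 10 members were described. The genes named beside them were the 3 with the highest Spearman correlation over batch 1 (mean of at least 1 CPM) and up to 4 called genes per pathway list. The signalling list over NP ages is not reported here. The members and lists were chosen with earlier results of these data known. The same mouse number is the same animal by the labels. The deviations of samples of a mouse from their group means correlated at 0.02 in NOR, 0.04 and −0.04 in NP and −0.02 and −0.01 in P (batches 1 and 2) over 11155 genes. In the main fits over age or time each sample was a replicate, without a mouse term. Their p values measure the spread between samples, several of them from the same mouse. In the comparisons of strains and of P with NP the mouse was the replicate. Floors of 3 counts cover counting error only.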

Additional observations from a re-analysis of the deposited data

Results flagged for a closer look

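Each set was the values of a tested member in a group of 4 to 10 samples of a batch. Of 184 such sets, 14 held a sample far from the others. Chance would flag about 9 at 1 in 20 if the sets were independent. They were not, since the same libraries entered for every member. Il7 was low in NOR mouse 4 at 10 weeks (0.381 CPM), and Il15 was high in NP mouse 5 at 6 weeks (9.33 CPM). Il2ra was high in NP mouse 3 at 18 weeks (5.55 CPM) and low in P mouse 7 at 6 weeks (0.84 CPM). The 18-week library of NP mouse 3 was the smallest of the series (4722396 counts), with 30 counts of Il2ra and 231 of Il2rg. Il15ra was high in P mouse 2 at 6 weeks (16.9 CPM) and low in P mouse 9 at −1 week (9.04 CPM). Il2rb was high in NOR mouse 4 at 18 weeks (13.6 CPM) and 22 weeks (4.2 CPM) and in NP mouse 3 at 6 weeks (18.8 CPM). Il7r in NP mouse 2 was high at 10 weeks (201 CPM) and low at 14 weeks (170 CPM). Il2rg was low in NP mouse 2 at 10 weeks (18.2 CPM), and high in NP mouse 3 at 18 weeks (42.8 CPM) and in P mouse 6 at −1 week (50.5 CPM).

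The 6 NP samples labelled by days after implantation entered no comparison. Their means of 2 samples exceeded the highest age-labelled NP sample of batch 1 for 3 members. Il2rb averaged 25.3 CPM at 31 days, 22.4 CPM at 38 days and 21.8 CPM at 108 days (highest age-labelled 18.8 CPM). Il2ra averaged 5.97 CPM at 31 days and 6.12 CPM at 108 days (highest age-labelled 5.55 CPM, in the smallest library of the series). Il21r averaged 11 CPM at both times (highest age-labelled 10.8 CPM). T cell markers summed to 43.8 to 72.6 CPM and NK markers to 13.7 to 22.4 CPM in these 6 samples. Their part in the values was not tested.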

How the results depend on the processing

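Of 728 member values under alternatives, 693 kept their side of the threshold, 18 lost a call, 17 gained one and 0 called values reversed. Among the 693, 57 uncalled values changed sign. The number of members called moved as follows, with genes called of genes tested in the same fit in parentheses, and the cause was not tested. Later NP ages called 1 member in batch 2 alone (6710 of 19665) and 1 to 4 when mice were left out (main 3). Later P times called 5 on plain library sizes (7559 of 21279) and 7 without the samples of 7 weeks before onset (8194 of 20595; main 3). Onset against −5 weeks called 1 with DESeq2 (837 of 19801) and 1 in batch 2 alone (1973 of 21377; main 0). The F test in NOR called 4 with DESeq2 (3982 of 23526), 0 on plain library sizes (452 of 19628) and 0 to 2 when mice were left out (main 2). In NP it called 2 with no filter (6426 of 37886), 1 in batch 2 alone (6710 of 19665) and 2 to 4 when mice were left out (main 4). In P it called 4 with no filter (7309 of 38826), 1 in batch 1 alone (3675 of 19596), 3 with no batch term (5755 of 21279) and 3 without the samples of 7 weeks before onset (7134 of 20595; main 7). The batch difference in P called 2 with DESeq2 (1758 of 20366; main 0). With the mouse as replicate block, the F test called 1 member in NOR (1190 of 19628) and 5 in P (6678 of 21279), and the block changed no other count. Over all genes, plain library sizes called 682 of 6662 higher in later NP (main 2089 of 5094) and 95 of 379 at onset (main 176 of 377), and shifted the median log2 change by −0.151 in NOR, −0.155 in NP and −0.125 for their difference. Il2 and Il21 were limited by depth, with at most 5 and 10 counts in a library.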
